A study of Mus musculus with 19 samples.

Results

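The passage of mouse cells from the embryonic stem cell (ESC) state to the epiblast-like cell (EpiLC) state was followed in cells in which Foxd3, a forkhead transcription factor, was to be deleted. Of the 12 samples of the study, 6 carry this comparison: 3 of ESC and 3 of EpiLC, all given tamoxifen at 1 µM for 36 h, chosen by their titles. They were read on 11 of the 19 Illumina bead arrays, ESC on 6 arrays in both hybridization rounds and EpiLC on 5, because EpiLC replicate 1 was hybridized in the first round only. The other 6 samples, 3 of ESC and 3 of EpiLC given ethanol, the solvent, stand as wild-type controls in the series' design text and serve here for the state change with Foxd3 intact. Per the labels, every culture was kept in Knockout DMEM with fetal bovine serum, antibiotics, glutamine and non-essential amino acids, and the ESC cultures also held LIF and inhibitors of GSK and MEK. State and culture additives therefore differ together and cannot be told apart. Strain, allele, the source of the recombinase and clone are not given in the sources used here. Nothing in the labels says that same-group samples came from separate cultures, so the spread between them may be technical.

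Naive ESC are held in their state by LIF, which acts through STAT3, and by blocking of the ERK and GSK3 kinases. When these signals are withdrawn, fibroblast growth factor drives ERK, the naive transcription factors are shut off, and the cells pass through a formative state that resembles the early post-implantation epiblast of the embryo and expresses Otx2, Fgf5 and the de novo DNA methyltransferases. Foxd3 is expressed in pluripotent cells and later marks the neural crest.

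Each gene is given by 1 probe, as a normalized log2 intensity with 1 value per sample, and changes are EpiLC minus ESC on that log2 scale with the standard error (SE) of the fit and n = 3 samples per group. A gene was called when its limma p-value, adjusted by Benjamini and Hochberg over the 9422 genes tested, was under 0.05. A level describes a probe and is not compared between genes. In these bulk samples, fewer cells that express a gene and less RNA per cell cannot be told apart.

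The labels were checked first against genes that define the states. Foxd3 itself has 1 probe, which was detected on 0 of the 19 arrays (lowest detection p 0.239), so the array cannot show whether the deletion took place. The ESC marker Nr0b1 was also below detection on all arrays (lowest detection p 0.326). Klf4, a naive reprogramming factor, had levels of 10.03, 10.03 and 9.97 in the ESC samples against 5.87, 5.89 and 5.80 in the EpiLC samples. Pou3f1, a POU factor of the epiblast, lay at 6.29, 6.37 and 6.41 in ESC, against 11.76, 11.59 and 11.50 in EpiLC. The states were separated by both genes with no overlap. Esrrb (−3.42 ± 0.17), Tbx3 (−3.12 ± 0.14) and Zfp42 (−2.44 ± 0.16) were lower in EpiLC, and Otx2 (3.05 ± 0.18) and Dnmt3b (1.38 ± 0.10) were higher. Pou5f1, which both states need, did not pass the test (−0.12 ± 0.08, adjusted p = 0.229), but it was called lower at equal medians (adjusted p = 0.0143) and with the mean of its probes (adjusted p = 0.0448), and its further probe alone had −0.28. Sox2 fell by 1.08 ± 0.25, but the probe used stayed detected on every array. Its further probe had −1.11 and was detected on 5 of 6 tamoxifen ESC arrays and 0 of 5 tamoxifen EpiLC arrays.

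**Figure D1:**
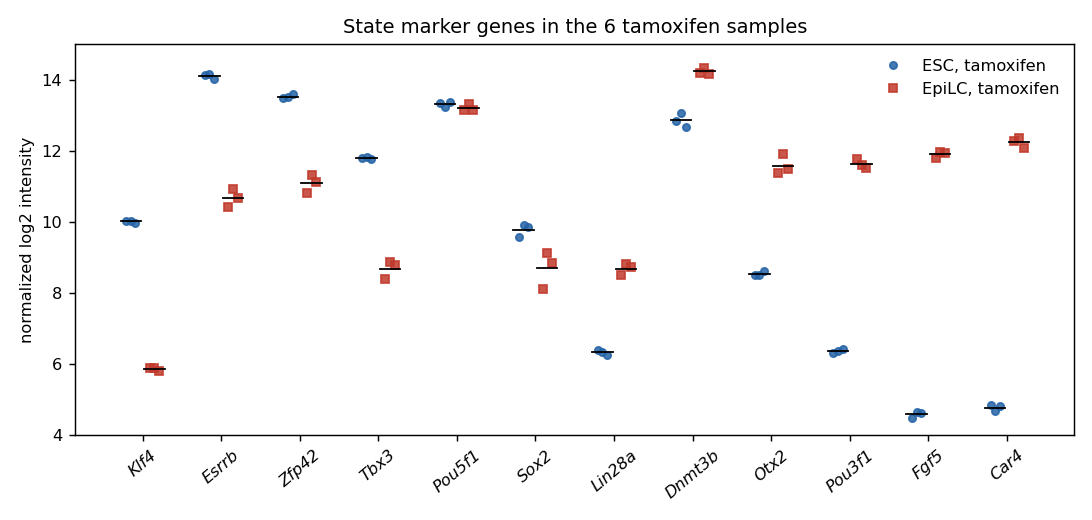
Normalized log2 intensity of 12 state genes in the 3 ESC samples (blue circles) and the 3 EpiLC samples (red squares) given tamoxifen, each point 1 sample and each bar the mean of 3. Klf4, Esrrb, Zfp42 and Tbx3 are lower in every EpiLC sample, Otx2, Pou3f1, Fgf5 and Car4 are higher in every one, and the Pou5f1 points of the states lie within 13.13 to 13.36.

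Some genes were detected in one state and not in the other, and from them Car4 and Fgf5 are shown for EpiLC and Mras and Tcl1 for ESC. Level was used to select them, and no order between genes is read from it. Car4 (carbonic anhydrase IV) and Fgf5 (a growth factor of the epiblast) were detected on every EpiLC array and on no ESC array, Mras (a Ras-related GTPase) and Tcl1 (a co-activator of AKT kinases) the reverse. Their promoter sequences are shown because these genes went from below detection to detection on every array, or the reverse. The windows span 300 bases around the RefSeq start, on build GRCm38.p6, at chr11:84957504-84957803 on the plus strand for Car4, chr5:98253934-98254233 on the plus strand for Fgf5, chr9:99436663-99436962 on the minus strand for Mras and chr12:105222688-105222987 on the minus strand for Tcl1. Capitals mark the letters TATAAA, searched on either strand at any position of the window, and whether they act as an element was not tested.
Car4: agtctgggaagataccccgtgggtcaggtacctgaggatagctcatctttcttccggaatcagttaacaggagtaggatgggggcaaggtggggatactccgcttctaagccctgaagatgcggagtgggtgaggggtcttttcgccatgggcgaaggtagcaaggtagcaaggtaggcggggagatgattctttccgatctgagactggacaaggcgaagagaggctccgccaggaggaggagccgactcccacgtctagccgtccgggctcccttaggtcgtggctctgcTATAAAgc
Fgf5: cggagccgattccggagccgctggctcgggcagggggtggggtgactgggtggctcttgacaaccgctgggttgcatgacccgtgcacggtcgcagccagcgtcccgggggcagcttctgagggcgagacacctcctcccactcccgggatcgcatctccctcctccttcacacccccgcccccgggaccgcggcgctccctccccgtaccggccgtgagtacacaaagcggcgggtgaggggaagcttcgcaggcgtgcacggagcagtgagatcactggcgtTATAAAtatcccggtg
Mras: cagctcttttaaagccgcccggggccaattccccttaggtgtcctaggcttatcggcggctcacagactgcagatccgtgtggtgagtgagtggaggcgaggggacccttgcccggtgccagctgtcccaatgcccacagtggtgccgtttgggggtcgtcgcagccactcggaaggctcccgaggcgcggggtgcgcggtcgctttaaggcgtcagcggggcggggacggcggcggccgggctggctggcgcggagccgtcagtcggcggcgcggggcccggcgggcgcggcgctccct
Tcl1: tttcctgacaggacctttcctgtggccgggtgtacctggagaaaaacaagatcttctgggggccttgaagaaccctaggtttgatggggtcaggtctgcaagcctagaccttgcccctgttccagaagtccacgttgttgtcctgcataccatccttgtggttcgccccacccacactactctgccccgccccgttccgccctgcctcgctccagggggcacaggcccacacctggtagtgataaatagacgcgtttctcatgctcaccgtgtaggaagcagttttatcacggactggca
TATAAA stood at position 43 after the start in Car4 and at position 35 after it in Fgf5, and in neither the Mras nor the Tcl1 window. Other genes of these classes did not follow this split. Gbp2, detected in EpiLC only, had no TATAAA in its window, and Cabs1, detected in ESC only, had it on the minus strand at position −197. The forkhead core TGTTTAC was in none of these windows on either strand, which says only that these letters are not there. Over the promoters of the genes tested, 7.56% of 7076 held TATAAA on either strand, against 13.7% of the 182 promoters found for genes at least 4-fold higher in EpiLC and 10% of the 190 found for genes at least 4-fold lower. TGTTTAC was in 2.47% of the promoters of the genes tested, 3.85% of those of the higher and 3.68% of those of the lower genes. The letters searched do not overlap each other, and a match is a description of the window and not a binding site.

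Between ESC and EpiLC given tamoxifen, 5330 of 9422 genes were called (56.6% of all genes tested), 2772 higher in EpiLC (29.4%) and 2558 lower (27.1%). Of these, 940 were at least 2-fold higher (9.98%) and 917 at least 2-fold lower (9.73%), and 27 and 35 passed 16-fold. The median called change was 0.752 in size, with a median SE of 0.132. In 6008 genes (63.8%) the samples of the states did not overlap, and 5202 of the called genes were among them. When the arrays were brought to equal medians instead of equal quantiles, the median gene moved by −0.10 and the split became 2098 higher and 3008 lower (41.1% of the calls higher, against 52.0%), so small changes are relative to that choice. Exact permutation of 3 against 3 samples cannot give a two-sided p below 0.1, so the calls rest on limma's pooled spread over the 4 groups.

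**Figure D2:**
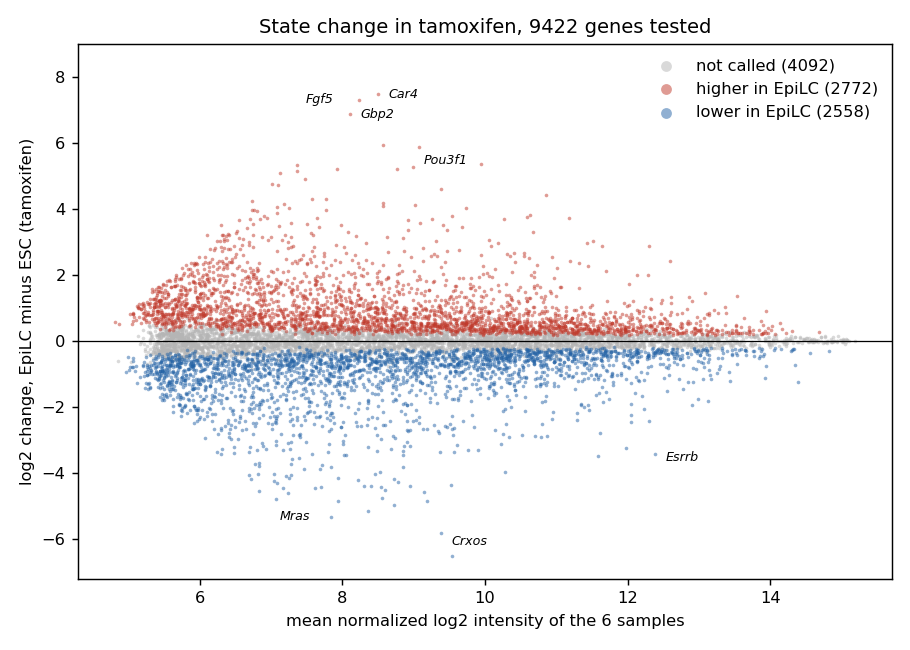
Change from ESC to EpiLC in tamoxifen (log2, vertical) against the mean normalized log2 intensity of the 6 samples (horizontal) for the 9422 genes tested, coloured by call, 2772 higher in red, 2558 lower in blue and 4092 not called in grey. Changes beyond 5 on the log2 scale are seen for few genes, some of them named, and points without a gene symbol carry no name.

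Among called genes detected on every tamoxifen array, Pou3f1 had the largest rise (5.26 ± 0.12, 38.4-fold), and the next were Lefty1, an inhibitor of Nodal (4.60 ± 0.13), Dusp6, a phosphatase that switches off ERK (4.43 ± 0.26), and Igfbp3, which binds insulin-like growth factors (4.19 ± 0.22). Krt18 (4.13 ± 0.19), a keratin of simple epithelia, Lpar4 (4.10 ± 0.18), a receptor for lysophosphatidic acid, Id1 (4.04 ± 0.16), an inhibitor of helix-loop-helix factors, and Cdkn1c (3.82 ± 0.09), a cyclin-dependent kinase inhibitor, followed. Dusp4, Cldn6, Igf2 and Phlda2 made up the 12 largest, with changes of 3.79, 3.77, 3.73 and 3.69. Dusp6 lay at 9.15, 8.69 and 8.06 in ESC, against 13.19, 13.08 and 12.91 in EpiLC. The ESC samples were thus more spread than the EpiLC samples, and Dusp4 had the same order, at 8.24, 7.62 and 7.06 in ESC and 11.38, 11.51 and 11.39 in EpiLC.

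The largest falls were those of Crxos, a homeobox gene of early embryos and ESC (−5.82 ± 0.19, 56.5-fold lower), Saa3, an acute-phase protein (−4.97 ± 0.18), Lrrc34, a leucine-rich repeat protein of pluripotent cells (−4.84 ± 0.09), and Gsta3, a glutathione transferase (−4.50 ± 0.19). Crxos lay at 11.96, 12.26 and 12.66 in ESC, against 6.60, 6.26 and 6.56 in EpiLC, far outside the spread of either group. Serpinb6c (−4.39), Aqp3, a water and glycerol channel (−4.37), Oas1g, a member of the oligoadenylate synthetases (−4.26), and Khdc3, a maternal-effect gene of the oocyte and early embryo (−3.96), fell as well. The RIKEN genes 2510009E07Rik and 2410137M14Rik, Fam25c and Cobl, an actin nucleator, completed the 12, at −4.22, −4.17, −3.97 and −3.80. Serpinb6c, Oas1g and Gsta3 belong to families of near-identical copies, and their probes may read more than 1 copy.

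In all, 245 called genes were detected on every EpiLC array and no ESC array, and 206 the reverse. For such genes only a bound can be given (at least N-fold), namely the mean of the detected group over the mean of the other group raised on each array to the lowest detected signal. Car4 lay at 12.28, 12.36 and 12.08 in EpiLC, at least 84.0-fold higher than in ESC, and Fgf5 at 11.79, 11.97 and 11.92, at least 67.9-fold higher. Both genes held within a narrow range over the 3 EpiLC samples. Gbp2, an interferon-inducible GTPase, was at least 52.7-fold higher, Fgf8, a growth factor of the gastrulating embryo, at least 18.6-fold, Gbp2b at least 17.2-fold and Vstm2b, an immunoglobulin-domain membrane protein, at least 16.9-fold. A further Gbp2 probe rose by 3.15, against 6.87 on the probe used, so the bound for Gbp2 holds for the probe used. Fgf8 was less even, at 10.34, 9.33 and 10.42 in the EpiLC samples. On the ESC side Mras was at 10.33, 10.60 and 10.60, at least 25.7-fold higher than in EpiLC, and Tcl1 at 9.76, 9.85 and 9.91, at least 16.1-fold higher. Nfe2, a basic leucine zipper factor best known from blood, Jam2, a junctional adhesion molecule, Cabs1, a calcium-binding protein of spermatids, and Notum, a secreted Wnt inhibitor, were at least 13.1, 12.4, 11.8 and 11.3-fold higher in ESC.

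Naive pluripotency genes fell together. Of 23 listed, 19 had a probe and 17 were tested, of which 14 fell and 0 rose (82.4% lower, against 27.1% of all genes), with a median change of −2.44 against 0.01 over all genes. Nr5a2, an orphan nuclear receptor (−4.03 ± 0.27), Klf4 (−4.15 ± 0.10) and Esrrb, a nuclear receptor of the naive network (−3.42 ± 0.17), were among those that fell. The Klf4 probe used was detected on 2 of 5 tamoxifen EpiLC arrays, and its other probes had −3.43 and −2.91. The size of the Klf4 fall therefore depends on the background and the probe. Klf2 fell by 2.79 ± 0.13, Klf5 by less (−0.86 ± 0.10), and Nanog by 1.51 ± 0.15, from 13.45, 13.35 and 13.10 to 11.97, 11.82 and 11.59. Nanog thus remained detected on every EpiLC array. Manba (−2.82 ± 0.28), Fbxo15 (−1.94 ± 0.15), Pecam1 (−2.19 ± 0.30) and Gbx2 (−0.48 ± 0.13) fell too. Dppa3, a maternal factor also made by naive cells, did not pass the test (0.21 ± 0.24), nor did Tcf7l1, the repressor that GSK3 inhibition relieves (0.05 ± 0.09). Fgf4 (−0.84 ± 0.37, adjusted p = 0.0712) was called lower in 5 alternatives, among them without EpiLC replicate 2 (adjusted p = 0.0219). In 2 of the tested genes, Jam2 and Tcl1, EpiLC were below detection on every array.

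Genes of the formative and primed epiblast rose in most cases. Of 22 listed, 17 were tested, 13 rose and 1 fell (76.5% higher, against 29.4% of all genes), with a median of 2.05. Besides Car4, Fgf5, Pou3f1 and Otx2, Sall2, a zinc finger factor, rose by 3.17 ± 0.10, Tcf15 by 2.05 ± 0.15 and Grhl2, an epithelial factor of the formative epiblast, by 2.49 ± 0.28. Otx2 went from 8.49, 8.49 and 8.61 to 11.37, 11.89 and 11.47. Pim2, a serine/threonine kinase, rose by 3.56 ± 0.11 from a mean under the lowest detected signal, so that its size depends on the background. Fgf15, the intestinal and midbrain growth factor, was at least 4.77-fold higher and Lef1, a Wnt effector, at least 1.80-fold. Etv5, an ERK-responsive ETS factor, fell by 0.36 ± 0.10, a call lost with round 1 alone (adjusted p = 0.0811). Etv4 (0.36 ± 0.28) passed only without ESC replicate 1 (adjusted p = 0.014), and Nodal (0.08 ± 0.07) and Zscan10 (0.19 ± 0.09) did not pass, though Zscan10 did with array weights (adjusted p = 0.0367). Of the 17, 5 were undetected on every ESC array, and such members could be tested only through EpiLC.

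Among the 13 tested genes shared by both states, 6 rose, 1 fell (Sox2) and 6 did not pass (46.2% higher, against 29.4% of all genes). Their median was 0.09, which becomes −0.06 at equal medians. Lin28a, which blocks let-7 processing, rose from 6.38, 6.34 and 6.24 to 8.49, 8.82 and 8.72. Utf1 (1.09 ± 0.22), Tdgf1, the Nodal co-receptor (1.03 ± 0.26), Zfp281 (0.48 ± 0.13) and Sall4 (0.31 ± 0.07) rose, the last pair without a call at equal medians (adjusted p = 0.119 and 0.247), and Myc was at least 1.27-fold higher. Dppa4 (−0.09 ± 0.12), Dppa5a (−0.08 ± 0.07), Trim28 (−0.02 ± 0.09), L1td1 (0.09 ± 0.17) and Rif1 (−0.01 ± 0.34) did not pass.

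Most genes that answer ERK were higher in EpiLC. The labels give the MEK inhibitor for the ESC medium alone, together with LIF and the GSK inhibitor, so its part cannot be told apart and was not tested. Of 13 tested targets and feedback genes, 9 rose and 1 fell (69.2% higher, against 29.4% of all genes), with a median of 0.90. Beside the phosphatases Dusp6 and Dusp4, the immediate-early factor Egr1 went from 5.56, 5.84 and 5.46 to 10.52, 9.23 and 10.04. Egr1 was detected on 3 of the 6 ESC arrays, with a mean under the lowest detected signal, so the size of its rise (4.31 ± 0.29) depends on the background. Spred1, an inhibitor of Ras signalling, rose by 1.35 ± 0.20 and cyclin D1 (Ccnd1) by 0.82 ± 0.07. Etv1 (0.12 ± 0.17) and Etv4 did not pass, and Phlda1 (0.22 ± 0.23) passed only without ESC replicate 1 (adjusted p = 0.0445). Of the ligands and receptors of the family, 9 were tested, 5 rose (55.6%, against 29.4% of all genes) and 1 fell, and 5 of the 9 were detected in 1 state only. Fgf17 rose by 2.84 ± 0.34, Fgfr2 was at least 2.48-fold higher and Fgf10 at least 1.32-fold lower, while Fgfr1 (0.06 ± 0.10) did not pass.

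Genes induced by LIF through STAT3 fell in 6 of 12 tested and rose in 3 (50% lower, against 27.1% of all genes). The median of the list was −0.45. Socs3, the feedback inhibitor of the pathway, lay at 9.59, 9.73 and 9.52 in ESC, against 8.20, 7.26 and 7.97 in EpiLC. Stat3 itself fell by 1.12 ± 0.30, the LIF receptor (Lifr) was at least 1.76-fold lower and Bcl3 at least 3.25-fold lower. Gadd45g rose by 2.61 ± 0.25, Junb by 1.48 ± 0.24 and Pim3 by 0.60 ± 0.07, so the list did not move as 1 block. Il6st, the shared receptor subunit gp130, did not pass (−0.41 ± 0.19, adjusted p = 0.0819), except in 3 alternatives.

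Of 8 tested targets of Wnt and beta-catenin, 2 rose and 3 fell (25% and 37.5%, against 29.4% and 27.1% of all genes). Axin2, the best-known feedback target, did not pass (−0.19 ± 0.18), nor did Sp5 (0.25 ± 0.48), whose EpiLC samples ranged from 8.83 to 10.69. Cdx1 fell by 2.47 ± 0.22 to a mean under the lowest detected signal, and cyclin D2 (Ccnd2) was at least 2.07-fold higher.

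Members of the Nodal and TGF-beta pathway had a median of 0.83. Of 11 tested, 7 rose and 0 fell (63.6% higher, against 29.4% of all genes). The antagonists were among them: Lefty1, which went from 7.10, 7.26 and 6.89 to 11.75, 11.70 and 11.60, and Fst (follistatin), which rose by 3.50 ± 0.15 from a mean under the lowest detected signal. Of the receptors and transducers, Acvr2b rose by 0.83 ± 0.11, the co-factor Foxh1 by 1.05 ± 0.13 and Smad3 by 0.65 ± 0.16, while Smad2 (−0.02 ± 0.09) did not pass. The ligand Nodal did not pass, and neither did Lefty2 (0.21 ± 0.12). The ligand Gdf3 (0.19 ± 0.08) did not pass either, but did with the sample number as a block (adjusted p = 0.0469), in the authors' table (0.021) and without background correction (0.0338). Skil, a transcriptional brake on SMADs, rose by 1.74 ± 0.13.

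BMP targets rose in 5 of 7 tested and fell in 0 (71.4% higher, against 29.4% of all genes). Id1 went from 8.07, 7.61 and 7.46 to 11.67, 11.74 and 11.86, and Id3 rose by 1.62 ± 0.23. Msx1, a homeobox target, rose by 5.21 ± 0.22 from a mean under the lowest detected signal, at 10.32, 10.33 and 10.95 in EpiLC. Id2 rose by 0.55 ± 0.20 (adjusted p = 0.033) but lost its call in 7 alternatives, among them without EpiLC replicate 1 (adjusted p = 0.0817) or 2 (0.13) and without ESC replicate 3 (0.134). The ligand Bmp4 did not pass (−0.77 ± 0.32, adjusted p = 0.0579), its ESC samples ran from 8.33 to 9.82, and it was called lower in 6 alternatives, among them without ESC replicate 3 (adjusted p = 0.0071).

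For DNA methylation, 4 of 7 tested members rose and 0 fell (57.1% higher, against 29.4% of all genes). Dnmt3b, a de novo methyltransferase, went from 12.83, 13.05 and 12.67 to 14.19, 14.33 and 14.16, and Tdg, a glycosylase of the demethylation pathway, rose by 1.24 ± 0.11. Dnmt3l, the catalytically inactive partner, rose by 0.61 ± 0.21 (adjusted p = 0.0262) and lost its call at equal medians (adjusted p = 0.0871), without EpiLC replicate 2 (0.106) and without ESC replicate 2 (0.0785) or 3 (0.1). Dnmt1, the maintenance enzyme, and its partner Uhrf1 did not pass (−0.12 ± 0.08 and −0.22 ± 0.10), though Uhrf1 was called lower in 7 alternatives and Dnmt1 at equal medians (adjusted p = 0.0457).

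Imprinted genes, which are expressed from 1 parental allele, rose as a list. Of 13 tested, 12 rose and 0 fell (92.3% higher, against 29.4% of all genes), with a median of 1.55. Igf2, a fetal growth factor, lay at 9.53, 9.28 and 9.14 in ESC, against 12.88, 13.13 and 13.13 in EpiLC. Cdkn1c lay at 8.79, 8.64 and 8.74 in ESC, against 12.38, 12.53 and 12.70 in EpiLC, and both growth promoters and growth restrictors were therefore among the genes that rose. Grb10, an adaptor that restrains insulin signalling, rose by 2.21 ± 0.17, Mest by 1.55 ± 0.16, Snrpn by 1.45 ± 0.14, Ndn by 1.03 ± 0.13, Dlk1 by 0.95 ± 0.16 and Impact by 0.52 ± 0.13. Peg3 was at least 4.34-fold and Nnat at least 1.40-fold higher, both undetected in ESC. Igf2r did not pass (0.09 ± 0.11). At equal medians 11 rose and 0 fell, Impact having lost its call (adjusted p = 0.0868).

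Genes of the interferon response rose in 10 of 14 tested and fell in 2 (71.4% higher, against 29.4% of all genes). Their median was 2.04, and 7 of the 14 were undetected on every ESC array. Gbp2 lay at 4.81, 4.62 and 4.58 in ESC, against 11.83, 11.35 and 11.45 in EpiLC. Irf1, a transcription factor that activates the guanylate-binding proteins, was detected in both states and rose from 10.34, 10.12 and 10.16 to 13.06, 13.06 and 13.10. Bst2 (tetherin) rose by 3.12 ± 0.16, Gbp3 was at least 6.88-fold higher, Isg15 at least 3.64-fold, the chemokine Cxcl10 at least 2.18-fold, and the antigen-processing genes Psmb8 at least 1.84-fold and Tap1 by 1.27 ± 0.18. The direction was not shared by all members, since Irf9 (−1.58 ± 0.15) and Ifitm3 (−0.60 ± 0.09) fell and B2m (−0.11 ± 0.16) did not pass. The probes for Ifit1, Ifit3, Irf7 and Mx1 did not pass the detection filter.

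Epithelial genes rose in 8 of 12 tested and fell in 0 (66.7% higher, against 29.4% of all genes), with a median of 1.23. Esrp1, the epithelial splicing regulator, lay at 6.12, 5.64 and 5.05 in ESC, against 11.56, 11.45 and 11.58 in EpiLC, a rise of 5.93 ± 0.26 from a mean under the lowest detected signal. Cldn6 rose from 8.74, 8.51 and 8.86 to 12.61, 12.19 and 12.64, Krt8 by 3.32 ± 0.20 and Cldn7 by 1.42 ± 0.15. E-cadherin (Cdh1) moved little, at 0.24 ± 0.09 (adjusted p = 0.0405), a call lost in 10 alternatives, among them equal medians (adjusted p = 0.478) and without EpiLC replicate 1 (0.092) or 2 (0.0726), and Ocln (−0.27 ± 0.15), Tjp1 (−0.26 ± 0.28) and Cldn4 (−0.27 ± 0.14) did not pass, though Cldn4 was called lower at equal medians (−0.43, adjusted p = 0.0293). Of the mesenchymal genes, 6 were tested, 2 rose and 1 fell (33.3% and 16.7%, against 29.4% and 27.1% of all genes). Zeb1, a repressor of epithelial genes, fell by 3.12 ± 0.26, and Mmp2, a matrix protease, rose by 2.39 ± 0.11.

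The forkhead family rose in 9 of 11 tested members and fell in 0 (81.8% higher, against 29.4% of all genes). Its median was 1.05. Foxd4 was at least 5.99-fold higher and Foxq1 at least 2.79-fold, both undetected in ESC. Foxp1 rose by 2.33 ± 0.31 from a mean under the lowest detected signal, Foxa1 by 1.47 ± 0.16, Foxa3 by 1.45 ± 0.20, Foxo1 by 0.62 ± 0.10 and Foxm1, a factor of mitotic entry, by 0.37 ± 0.08, without a call at equal medians (adjusted p = 0.106). Foxj1 (0.03 ± 0.17) and Foxp4 (0.09 ± 0.18) did not pass.

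**Figure D3:**
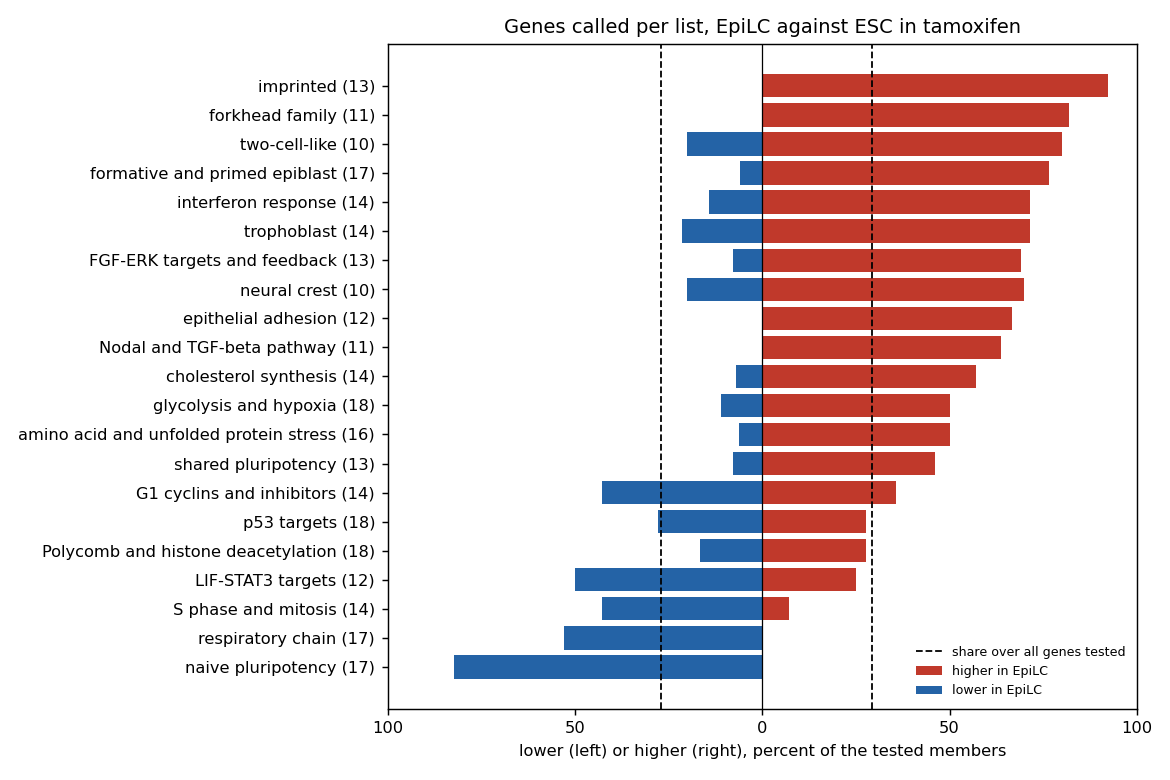
Share of the tested members of 21 gene lists called higher (red, right) or lower (blue, left) in EpiLC than in ESC in tamoxifen, with the number tested in parentheses and dashed lines at 29.4% and 27.1%, the shares over all genes tested. The bar of the imprinted list reaches 92.3% on the higher side and that of the naive list 82.4% on the lower side.

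Of the metabolic lists, glycolysis and hypoxia genes rose in 9 of 18 tested and fell in 2 (50% higher, against 29.4% of all genes), with a median of 0.23. The glucose transporter Slc2a1 rose from 12.32, 12.26 and 12.31 to 13.44, 13.44 and 13.62, the oxygen sensor Egln3 by 2.20 ± 0.20 from a mean under the lowest detected signal, Pdk1, which closes off pyruvate oxidation, by 1.81 ± 0.32 and Ldha by 0.37 ± 0.07. Pfkp, the platelet form of phosphofructokinase, fell by 2.27 ± 0.17 while the liver form Pfkl rose by 0.93 ± 0.15. Gapdh did not pass (0.02 ± 0.07). Tpi1 rose by 0.85 ± 0.10 on the probe used, but another of its probes was called lower (−0.71). Of 17 tested genes of the respiratory chain, counting its regulator Esrrb, 9 fell and 0 rose (52.9% lower, against 27.1% of all genes). Their median was −0.26. Cox7a1, a muscle-type subunit of cytochrome oxidase, fell from 11.70, 11.96 and 12.18 to 9.20, 8.98 and 9.10, and Cox5a by 0.74 ± 0.08, Uqcrc1 by 0.35 ± 0.07 and Cox4i1 by 0.24 ± 0.07, which lost its call without EpiLC replicate 3 (adjusted p = 0.0544). Atp5b (−0.04 ± 0.07), Ndufv1 (−0.05 ± 0.07) and Cox5b (0.00 ± 0.08) did not pass, though Ndufv1 was called lower at equal medians (−0.24, adjusted p = 0.0439). Cholesterol synthesis genes rose in 8 of 14 tested (57.1%, against 29.4% of all genes). Cyp51 had the largest rise (1.37 ± 0.08) and Ebp was the only one to fall (−0.90 ± 0.19). At equal medians 3 rose and 1 fell.

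Cell cycle genes were divided. Of 14 tested G1 regulators, 5 rose and 6 fell (35.7% and 42.9%, against 29.4% and 27.1% of all genes). Cyclin E2 (Ccne2) rose by 1.51 ± 0.11 while cyclin D3 (Ccnd3) fell by 1.02 ± 0.08 and E2f1 by 0.87 ± 0.11. Of 14 genes of S phase and mitosis, 6 fell (42.9%, against 27.1% of all genes), 1 rose and 7 did not pass, with a median of −0.19. Top2a rose by 0.46 ± 0.11, Aurka fell by 0.49 ± 0.09 and Cdk1 by 0.55 ± 0.15, and Birc5 (0.10 ± 0.08), Cenpa (−0.01 ± 0.07) and Mcm2 (0.00 ± 0.09) did not pass. Targets of p53 rose in 5 of 18 tested and fell in 5, near the shares over all genes. Pmaip1, a pro-apoptotic BH3-only protein, rose by 1.23 ± 0.17 and Plk3 by 1.16 ± 0.16, while Sesn1 fell by 1.26 ± 0.12 and Cdkn1a (p21) by 0.68 ± 0.14. Mdm2 did not pass (−0.02 ± 0.09).

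Of 16 tested genes of amino acid and unfolded protein stress, 8 rose and 1 fell (50% higher, against 29.4% of all genes). Cebpb rose by 1.68 ± 0.15, Herpud1 by 1.22 ± 0.15, Ddit3 by 1.06 ± 0.11 and Atf4, the central factor of the response, by 0.54 ± 0.11, while Asns, an amino acid synthetase it induces, fell by 0.95 ± 0.15. Of 18 genes of Polycomb and histone acetylation, 5 rose and 3 fell (27.8% and 16.7%, against 29.4% and 27.1% of all genes). At equal medians 2 rose and 5 fell. Mtf2, a Polycomb accessory protein, fell by 1.15 ± 0.15, its relative Phf19 was at least 1.64-fold higher, and the acetyltransferase Ep300 rose by 0.99 ± 0.11. Ezh2 (−0.03 ± 0.20) did not pass on the probe used, but its further probe was called lower (−0.60, adjusted p = 0.0102). Hdac1 (0.39 ± 0.16, adjusted p = 0.0544) passed in 9 alternatives. Among 7 Ras genes, Nras rose by 0.81 ± 0.11 and Eras, an ESC form of Ras, fell by 1.31 ± 0.27, beside the loss of detection of Mras.

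Markers of other cells that the cultures could hold also differed between the states, and their part in the other results was not tested. Of 14 tested trophoblast genes, 10 rose and 3 fell (71.4% and 21.4%, against 29.4% and 27.1% of all genes). The mean level of the list was 7.39 to 7.57 in ESC and 8.78 to 9.24 in EpiLC. Plac1, a placental membrane protein, was at least 9.49-fold higher, Krt18 and Krt8 rose as given above, Gata2 rose by 1.13 ± 0.17 and Gata3 by 0.96 ± 0.21, whereas Cdx2, a defining factor, fell by 0.91 ± 0.36 (adjusted p = 0.0498, lost in 8 alternatives, among them without EpiLC replicate 1, adjusted p = 0.134) and Tead4 by 2.00 ± 0.13. The probes for Eomes, Elf5, Hand1 and Tpbpa did not pass the detection filter. Of 16 mesoderm and endoderm genes with a probe, 4 were tested. Of these, 3 rose and 1 fell (75% and 25%, against 29.4% and 27.1% of all genes). Wnt3, a primitive streak ligand, was at least 3.83-fold higher, Evx1 rose by 2.46 ± 0.31, Hoxb1 was at least 1.22-fold higher and Gsc fell by 1.25 ± 0.27, and the probes for Mixl1, Mesp1, Tbx6, Foxa2 and Sox17 did not pass the filter. The mean of the tested members was 6.36 to 6.61 in ESC and 7.60 to 8.02 in EpiLC.

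Primitive endoderm genes were mixed, with 3 of 9 tested higher and 5 lower (33.3% and 55.6%, against 29.4% and 27.1% of all genes). Their list means were 9.11 to 9.28 in ESC and 8.72 to 9.25 in EpiLC. Gata6 fell by 1.64 ± 0.22 and Lama1 by 1.71 ± 0.31, while Amn rose by 1.52 ± 0.17 and Col4a2 by 1.37 ± 0.23, and Gata4, Sox17, Sox7, Pdgfra, Afp and Ttr did not pass the filter. In neuroectoderm 2 of 13 genes with a probe were tested, and the probes for Sox1, Pax6, Six3 and Tubb3 were not kept. Neural crest genes rose in 7 of 10 tested and fell in 2 (70% and 20%, against the same shares over all genes). Their list means were 7.25 to 7.36 in ESC and 8.18 to 8.31 in EpiLC. Twist1 rose by 1.47 ± 0.11 and Ets1 by 1.10 ± 0.20, Ngfr fell by 2.34 ± 0.11, Snai1 did not pass (0.32 ± 0.17) but passed without ESC replicate 1 (adjusted p = 0.0467), and the defining Sox9, Tfap2b and Pax3 were not kept. Fibroblast genes had list means of 8.18 to 8.36 in ESC and 8.20 to 8.29 in EpiLC. Of 5 tested, 1 was higher and 2 were lower (20% and 40%, against 29.4% and 27.1% of all genes). Col1a1, Col1a2 and Col3a1 were not kept. Blood and endothelial genes had list means of 7.05 to 7.62 in ESC and 5.97 to 6.40 in EpiLC. Of the 4 tested, 3 fell and 0 rose (75% and 0%, against 27.1% and 29.4% of all genes). Pecam1, which ESC also express, and Tek (−1.37 ± 0.20) were among them, while Ptprc, Cdh5 and Gata1 were not kept.

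Markers of the two-cell-like state, into which single ESC stray at times, were all called, 8 higher and 2 lower of 10 tested. These shares are 80% and 20%, against 29.4% and 27.1% of all genes. The list means were 9.18 to 9.36 in ESC and 10.08 to 10.25 in EpiLC. Zscan4c went from 12.79, 12.94 and 12.81 to 13.71, 14.08 and 13.88, and Tcstv1 from 6.94, 7.04 and 6.68 to 9.54, 9.46 and 9.45. Usp17la rose by 1.82 ± 0.25, Tmem92 by 0.96 ± 0.15 and Tcstv3 by 0.86 ± 0.13, and Gm5662 fell by 1.21 ± 0.18. Most of these genes lie in families of near-identical copies, so a probe may read several of them. Germline genes rose in 3 of 10 tested and fell in 3, shares near those over all genes (29.4% and 27.1%). Taf7l rose by 2.23 ± 0.41, Nanos3 (−3.02 ± 0.22) and Dazl (−2.25 ± 0.25) fell, and Tfap2c did not pass (−0.11 ± 0.17).

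The state change in tamoxifen was then set against that in ethanol, where Foxd3 was to be intact. The 2 comparisons share no samples. In ethanol 5305 genes were called (56.3%), 2812 higher in EpiLC (29.8%) and 2493 lower (26.5%), and 4274 genes were called in the same direction in both, which is 80.2% of the tamoxifen calls and 80.6% of the ethanol calls. In all, 23 genes were called in opposite directions. Across the 9422 genes the changes correlated with a Pearson r of 0.936 and a slope of tamoxifen on ethanol of 0.911, given as a description, since genes are not independent and the samples were normalized together. A further 1033 genes were called in tamoxifen alone, but the test of the difference called 41 of them, so for most of them a difference between treatments was not shown.

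**Figure D4:**
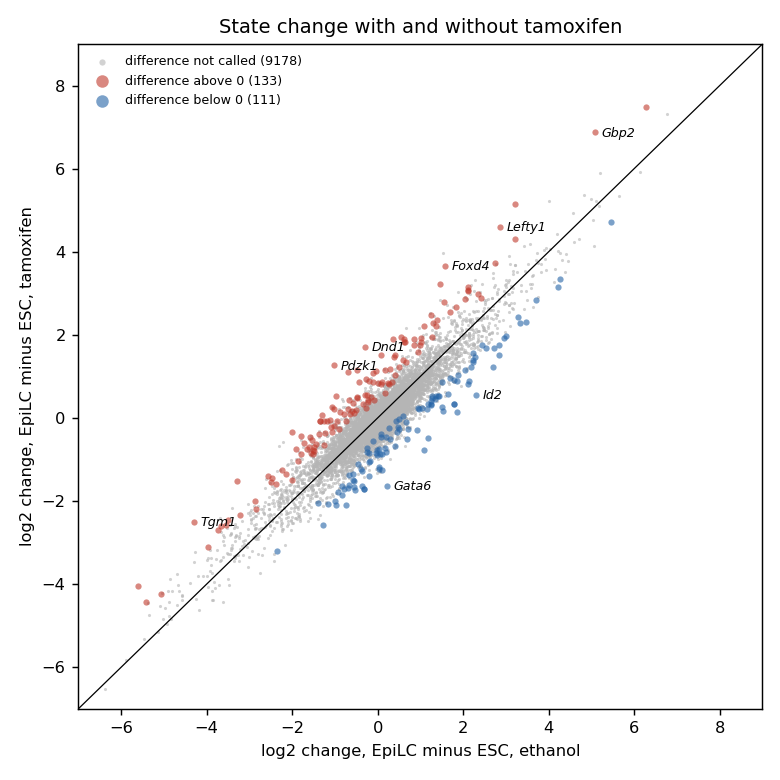
Change from ESC to EpiLC in tamoxifen (vertical) against that in ethanol (horizontal), both log2, for the 9422 genes, with the line of equal change. The 133 genes whose difference was called above 0 are red, the 111 below 0 blue, and the 9178 others grey lie along the line.

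The difference between the state changes was called for 244 genes (2.59%), 133 above 0 (1.41%) and 111 below (1.18%), with 1592 at an unadjusted p under 0.05. Of the 244, 93 differed by at least 2-fold. Most were differences of degree: 170 were called in both state changes and 21 of these went in opposite directions. Among the 133, 50 changed in the same direction and more in tamoxifen, 50 in the same direction and less, and 33 had opposite signs. The count depends on the fit. With the sample number as a block, which pairs same-numbered samples, 538 genes were called, the 244 among them. With hybridization round 1 alone, the only round that holds all 4 groups, 61 were called. Ethanol ESC replicate 1 has no array in that round, so the loss of a sample and the use of 1 round cannot be told apart there. Leaving out 1 sample gave 109 (without ethanol ESC replicate 3) to 198. Counts were over 1.5 times lower also without ethanol ESC replicate 1 (134) or 2 (159), without tamoxifen ESC replicate 1 (119), 2 (153) or 3 (150) and without tamoxifen EpiLC replicate 3 (123). At equal medians the split was 78 above and 258 below 0 (23.2% above, against 54.5%), with the median gene at −0.18, so the direction of small differences depends on this choice.

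Among the largest differences above 0, Pdzk1, a scaffold protein with PDZ domains, changed in opposite directions (difference 2.28 ± 0.24, adjusted p = 0.0017). It lay at 6.57, 7.12 and 6.93 in ESC, against 8.27, 8.32 and 7.83 in EpiLC given tamoxifen, and at 6.57, 6.86 and 6.49 in ESC and 5.56, 5.79 and 5.53 in EpiLC given ethanol. In ethanol EpiLC it was detected on 1 of 3 arrays, with a mean under the lowest detected signal. The sizes of its fall in ethanol and of its difference therefore depend on the background. The EpiLC groups were apart and the ESC groups overlapped. Dnd1, an RNA-binding protein that primordial germ cells need, was the same in kind (difference 2.00 ± 0.15). Its EpiLC samples were at 11.18, 10.87 and 11.06 in tamoxifen and at 9.63, 9.59 and 9.73 in ethanol, while its ESC samples were at 9.14, 9.47 and 9.37 in tamoxifen and at 9.91, 9.99 and 9.91 in ethanol. In both states the samples of the treatments did not overlap, tamoxifen being lower in ESC and higher in EpiLC. Edn1, the peptide endothelin 1, rose by 1.11 ± 0.21 in tamoxifen and fell by 0.70 in ethanol.

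Lefty1 rose in both, by 4.60 in tamoxifen and by 2.86 in ethanol (difference 1.74 ± 0.18). The treatments were further apart in ESC, at 7.10, 7.26 and 6.89 in tamoxifen and 9.30, 8.95 and 9.41 in ethanol, whereas the EpiLC samples were at 11.75, 11.70 and 11.60 in tamoxifen and 11.99, 12.21 and 12.05 in ethanol. Lefty2, a close relative, also differed (0.90 ± 0.17), a call lost in 6 alternatives, among them without tamoxifen EpiLC replicate 3 (adjusted p = 0.054), tamoxifen ESC replicate 1 (0.0595) or ethanol ESC replicate 1 (0.0563) or 3 (0.0565). Pcolce, which helps collagen maturation, changed by −1.53 in tamoxifen and by −3.29 in ethanol (difference 1.76 ± 0.21), and Tgm1, a transglutaminase of epidermis, by −2.51 and −4.29 (difference 1.78 ± 0.15). Tgm1 was detected on 2 of 5 tamoxifen EpiLC arrays, with a mean under the lowest detected signal, and on 0 of 3 ethanol EpiLC arrays, where it was at least 10.2-fold lower than in ESC. The size of its difference therefore depends on the background.

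The guanylate-binding proteins rose more in tamoxifen. Gbp2 lay at 11.83, 11.35 and 11.45 in tamoxifen EpiLC and at 9.99, 9.82 and 9.44 in ethanol EpiLC (difference 1.78 ± 0.22), and Gbp2b at 10.48, 9.61 and 9.75 against 8.41, 7.93 and 7.42 (difference 1.95 ± 0.35). Both were below detection in every ESC array of either treatment, so their ESC levels are bounds, and Gbp2b lost its call with round 1 alone (adjusted p = 0.0737). Gbp3 (1.04 ± 0.20), Irf1 (0.82 ± 0.14) and Isg15 (1.22 ± 0.26) differed in the same direction. With these, 5 of the 14 interferon genes tested were above 0 and 0 below, against 1.41% of all genes above. Gbp3 and Isg15 were also undetected on every ESC array of either treatment. Of the 5, all but Irf1 could thus be tested only through EpiLC. The list was chosen with earlier results of these data known, so the count is only a description. Isg15 lost its call in 11 alternatives, among them without tamoxifen EpiLC replicate 3 (adjusted p = 0.0988) or tamoxifen ESC replicate 1 (0.0717), Gbp3 in 6, among them without tamoxifen EpiLC replicate 3 (0.0574), and Irf1 at equal medians (0.134) and with round 1 alone (0.0602). Foxd4 (2.07 ± 0.31) and Slc5a5, the sodium iodide transporter (1.75 ± 0.18), were likewise undetected in all ESC arrays and higher in tamoxifen EpiLC than in ethanol EpiLC. Foxd4 was detected on 2 of the 3 ethanol EpiLC arrays.

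Below 0, Gata6, the factor that sets primitive endoderm apart from epiblast, fell by 1.64 ± 0.22 in tamoxifen and did not pass in ethanol (0.21, adjusted p = 0.44), with a difference of −1.85 ± 0.31. It lay at 8.78, 8.07 and 8.92 in tamoxifen ESC and at 6.71, 6.34 and 6.91 in ethanol ESC, and the EpiLC samples of both treatments lay between 6.65 and 7.20. The tamoxifen ESC samples therefore stood apart from the 3 other groups. The same arrangement held for Hsd17b1, a steroid dehydrogenase, at 8.59, 8.43 and 8.66 in tamoxifen ESC against 7.13, 7.39 and 7.21 in ethanol ESC (difference −1.36 ± 0.18), and for Gpnmb, a transmembrane glycoprotein, at 8.32, 8.70 and 8.77 against 6.83, 7.23 and 7.11 (difference −1.40 ± 0.21). Mob3b, a kinase co-factor, had a difference of −1.40 ± 0.25. With round 1 alone the calls of Gata6 (adjusted p = 0.0525), Gpnmb (0.0597) and Mob3b (0.105) were lost.

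In Fgfbp3, which binds fibroblast growth factors, the state change turned from 1.08 in ethanol to −0.76 ± 0.16 in tamoxifen (difference −1.84 ± 0.22). Its tamoxifen ESC samples were at 7.80, 8.00 and 7.64 and its ethanol ESC samples at 6.39, 6.23 and 6.07. Id2, a helix-loop-helix inhibitor, rose by 2.29 in ethanol and by 0.55 in tamoxifen (difference −1.74 ± 0.28), and it was undetected on every ethanol ESC array. Eef1a2, a translation elongation factor, rose in ethanol by 1.86 and did not pass in tamoxifen (0.15 ± 0.19), with a difference of −1.71 ± 0.27. It too was undetected on every ethanol ESC array, so the sizes of its rise in ethanol and of the difference depend on the background. Rgcc, a regulator of the cell cycle, had a state change of −0.47 ± 0.16 in tamoxifen, a call that was lost with round 2 alone, without EpiLC replicate 2 or 3 and without ESC replicate 2 or 3 (adjusted p from 0.0581 to 0.113), and of 1.17 in ethanol (difference −1.64 ± 0.23). Pmaip1 rose in both, by 1.23 in tamoxifen and 2.69 in ethanol (difference −1.46 ± 0.24, lost with round 1 alone, adjusted p = 0.0538). Celf4, an RNA-binding protein detected on 0 of 6 tamoxifen ESC arrays and 2 of 5 tamoxifen EpiLC arrays, had a difference of −1.36 ± 0.29 (adjusted p = 0.0351), which lost its call in 13 alternatives beside the test against 2-fold.

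**Figure D5:**
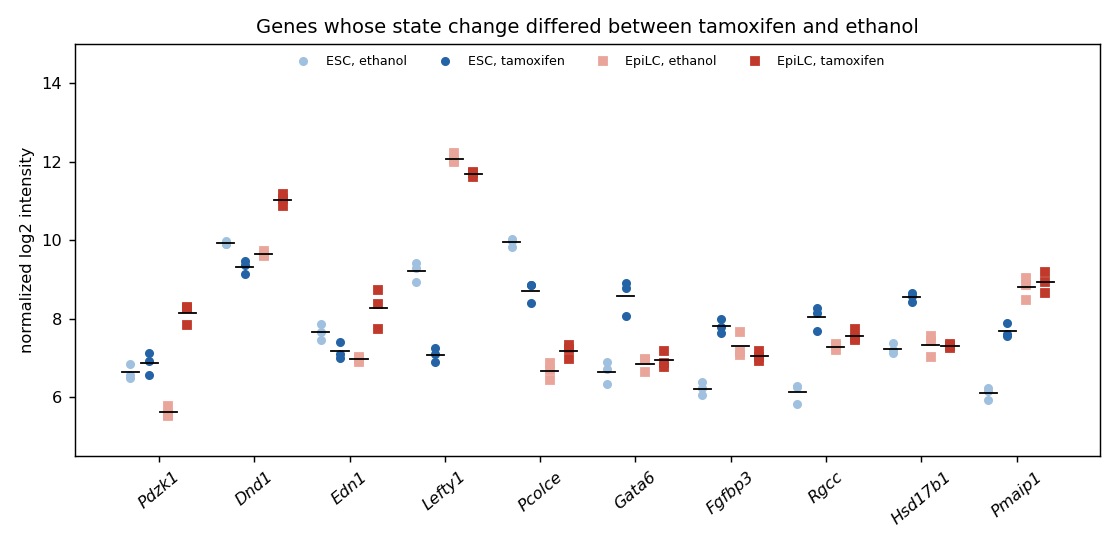
Normalized log2 intensity of 10 genes with a called difference between the state changes, by group, each point 1 sample and each bar the mean of 3. In Gata6, Fgfbp3, Rgcc, Hsd17b1 and Pmaip1 the tamoxifen ESC samples (dark blue) lie above the ethanol ESC samples (light blue), and in Pdzk1, Dnd1 and Edn1 the tamoxifen EpiLC samples (dark red) lie above the ethanol EpiLC samples (light red).

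Detection and raw intensity overlapped between the states. Of 25697 probes, 10750 to 11264 were detected per tamoxifen ESC array and 10780 to 11481 per tamoxifen EpiLC array. Median raw intensity was 165.6 to 175.9 in ESC and 152.7 to 168.9 in EpiLC in round 1, and 205.8 to 219.7 and 190.3 to 209.2 in round 2. Within the rounds the state change called 4896 genes in round 1 and 4970 in round 2, and 5329 of the 5330 main calls kept their sign in each. Of 2231 genes with several probes kept, 17 had probes called in opposite directions, Tpi1 among them.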

How the data were processed

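RNA of 12 mouse cell samples was read on 19 Illumina arrays. The authors deposited raw probe intensities with a detection p-value per probe, per the file headers, and a separate table of normalized values. Those normalized values were raised to at least 1 and put on the log2 scale here to serve as an alternative. The submitters' processing notes name limma without a version, and no further step is given in the sources used here. From the intensities, background was corrected with neqc (limma 3.58.1 in R 4.3.3, offset 16), quantile-normalized and put on the log2 scale. Of 25697 probes, 12529 were detected (p under 0.01) on 3 arrays or more, and each gene kept the probe with the highest mean, which left 9422 genes, 8680 of them with a symbol. Hybridizations of a sample were combined to 1 value with the round as a term. The standard errors over beads were not used. The limma fit covered the 12 samples in 4 groups of 3, with Benjamini-Hochberg adjustment at 0.05, and was tested on simulated data.

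Deviations of same-numbered tamoxifen samples from their group means correlated weakly across genes (r of 0.129, 0.163 and 0.217). For samples of other numbers r was −0.203 to 0.0279. Same-numbered ethanol samples had 0.0584, 0.121 and 0.253. Genes are not independent and the labels give no pairing, so pairing by number was not established. The main fit does not use it, and the fit with the sample number as a block is given as an alternative. Named genes are the 12 largest rises and falls among genes detected throughout, the 6 with the highest level in each direction among genes detected in 1 state, up to 4 called and 4 defining members per list, and the 10 largest differences each way. Further list members were named after their values were seen. The members and lists were chosen with earlier results of these data known. Alternatives were the authors' table, equal medians, no background correction, other filters and probe summaries, single rounds, a random or replicate block, array weights, a test against 2-fold and leaving out each sample. Promoters are from RefSeq on GRCm38.p6. The number of arrays limits the precision.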

Additional observations from a re-analysis of the deposited data

Results flagged for a closer look

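A total of 37 named or listed genes stood out because their change from ESC to EpiLC differed between tamoxifen and ethanol by limma's test of the difference itself, given here as tamoxifen minus ethanol on the log2 scale. Above 0 were Pdzk1 (2.28), Dnd1 (2.00), Edn1 (1.80), Foxd4 (2.07), Slc5a5 (1.75), Lefty1 (1.74), Lefty2 (0.90), Pcolce (1.76) and Tgm1 (1.78), and in the interferon list Gbp2 (1.78), Gbp2b (1.95), Gbp3 (1.04), Irf1 (0.82) and Isg15 (1.22). State genes and growth regulators with a difference above 0 were Klf5 (0.93), Tbx3 (0.84), Cabs1 (0.98), Car4 (1.19), Igf2 (0.98), Ccnd1 (0.56) and Pim3 (0.43). Among marker genes of other cells, Ascl2 (1.13), Tead4 (0.86), Ngfr (0.87) and Vim (0.88) lay above 0. Below 0 were Gata6 (−1.85), Fgfbp3 (−1.84), Id2 (−1.74), Eef1a2 (−1.71), Rgcc (−1.64), Pmaip1 (−1.46), Gpnmb (−1.40), Mob3b (−1.40), Hsd17b1 (−1.36) and Celf4 (−1.36), with Fas (−0.80) and Tdpoz4 (−1.25) from the lists of p53 targets and of the two-cell-like state. Some of these genes were not measured above background in every group. Id2, Eef1a2 and Ascl2 were undetected on all ethanol ESC arrays, Tgm1 on all ethanol EpiLC arrays, Cabs1 in EpiLC of both treatments, and Car4, Celf4, Foxd4, Slc5a5, Gbp2, Gbp2b, Gbp3 and Isg15 in ESC of both. Fas was undetected in both ethanol groups, so its ethanol change was not measured. Pdzk1 was detected on 1 of 3 ethanol EpiLC arrays. The sizes of these differences depend on the background. Beside the test against 2-fold, the calls of Fas and Tbx3 were lost in 16 alternatives each, that of Pim3 in 15, Tdpoz4 in 14, Celf4 in 13, Isg15 in 11, Tead4 in 10, Ascl2 in 7, Gbp3 and Lefty2 in 6 each, Cabs1 in 4 and Vim in 3. Those of Car4, Igf2, Ccnd1 and Irf1 were lost in 2 each and those of Gata6, Gbp2b, Gpnmb, Mob3b, Ngfr and Pmaip1 in 1 each. In the authors' table the difference of Tbx3 was 0.11 (adjusted p = 0.546) and that of Car4 1.35 (adjusted p = 0.344), and with round 1 alone Car4 had an adjusted p of 0.0514. Without ethanol ESC replicate 3, Ascl2 (adjusted p = 0.0676), Tead4 (0.0817) and Vim (0.0565) were no longer called.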

How the results depend on the processing

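The 5330 tamoxifen calls became 1002 (523 higher, 479 lower) in the test against a 2-fold change, where 1272 genes had an unadjusted p under 0.05, and 4712 to 5861 under the other alternatives. Leaving out 1 sample gave 4712 to 5139. With the sample number as a block, 5861 genes were called, 5310 of the 5330 among them. The 244 differences between treatments became 399 in the authors' table, 61 with round 1 alone, 538 with the replicate block and 0 in limma's test against 2-fold, where 25 had an unadjusted p under 0.05. Leaving out 1 sample gave 109 to 198. Round 2 alone gives no difference, since it holds no ethanol EpiLC array. Of the 364 named or listed genes tested for the state change, 188 kept their status under every alternative, the test against 2-fold included. Each of these was either called in the same direction throughout or never called, and the sign of a gene never called could change. Of the 37 with a called difference, 0 kept their call throughout, as none passed the test against 2-fold. None of the 364 was called in the opposite direction. Over all genes, 1 tamoxifen call was: Copg1, a coat protein subunit, changed by 0.47 on the probe used and by −0.29 with the mean of its probes (adjusted p = 0.0334). Equal medians turned the sign of the median of the lists of shared pluripotency (−0.06), germline (−0.08), p53 (−0.07) and Ras genes (−0.10). The causes were not tested. Signal near background limits the size of changes of genes undetected in 1 state.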

Other observations

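Gene families picked after the data were seen are given for the state change under tamoxifen. Of 22 genes of cytochrome c oxidase, the last enzyme of the respiratory chain, 14 fell and 1 rose (63.6% lower, against 27.1% of all genes), with a median of −0.44, and in ethanol 11 fell and 1 rose. Of 38 genes of NADH dehydrogenase, the first enzyme of that chain, 18 fell and 1 rose (47.4% lower), with a median of −0.23. In ethanol 12 fell and 1 rose. Mitochondrial ribosomal proteins fell in 21 of 71 (29.6%, near the share over all genes) and rose in 7, while cytosolic ribosomal proteins fell in 3 of 54 and rose in 1. DnaJ genes, co-chaperones of HSP70, fell in 12 of 30 (40%, against 27.1% of all genes) and rose in 2. Keratins rose in 5 of 9 (55.6%, against 29.4% of all genes) and fell in 1. Genes of the Hox clusters fell in 8 of 16 (50%) and rose in 4 (25%, near the share over all genes).

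By chromosome, 38.8% of the 294 genes tested on the X rose and 23.5% fell, with a median change of 0.16 in tamoxifen and 0.20 in ethanol. On chromosome 13, 38.3% of 313 genes rose and 23.6% fell. Chromosome 16 had the lowest share of rises, 18.0% of 255 genes, with 33.3% lower. These shares are descriptions without a test.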
